A study of Mus musculus with 12 samples.

Results

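Granule cell cultures that received the calcium channel subunit variant β4a were compared with cultures that received β4b, using the 3 arrays of each group, 6 of the 12 arrays of the series. All cultures came from cerebella of lethargic mice on a 129/SvJ background at postnatal day 7, and the shared growth protocol also names BALB/c mice. Neurons were exposed to a lentiviral construct for β4a, β4b, β4e or eGFP for 12 h directly after plating, in basal Eagle's medium with fetal calf serum and potassium chloride. Ara-C, which stops dividing cells, was added to every culture 24 h after plating, and RNA was taken after 9 days in vitro. The eGFP and β4e groups, 3 arrays each, entered the fit for its estimate of spread. Each array was hybridised with a target made from 500 ng of RNA. The labels do not say what share of cells was transduced, which promoter the constructs carry, or whether the replicate numbers stand for separate cultures, so p-values measure the spread between these arrays.

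β subunits are cytosolic partners of voltage-gated calcium channels that bring the pore-forming subunit to the membrane and tune its gating. The β4 gene, Cacnb4, gives transcripts that differ at their 5′ end, so that β4a and β4b differ in their amino terminus, and β4b has been described in nuclei of granule cells. Lethargic mice lack functional β4, which allows single variants to be put back one at a time. The comparison asks whether the choice of variant changes transcript levels in neurons that lack their own β4.

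No gene passed the test for a difference between β4a and β4b. Of 23044 probe sets tested with limma and a replicate block, 0 had an adjusted p under 0.05, a share of 0%, and the smallest adjusted p was 0.997. At an unadjusted p under 0.05 there were 619 probe sets (2.69%), fewer than the 1152 (5%) that would be called if nothing differed. Of these 619, 224 (0.972% of those tested) were higher with β4a and 395 (1.71%) were higher with β4b. This split depended on scaling, with 288 against 314 after a second quantile normalisation and 295 against 282 after centring each array on its median. Without the replicate block the adjusted count was also 0, and 56 probe sets had an unadjusted p under 0.05. Without the β4a array of replicate 3 the unadjusted count was 1083, and the adjusted count stayed at 0.

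The precision of the comparison bounds the measured difference at most probe sets. The median standard error of the difference was 0.133 on the log2 scale, and the 95% interval lay within 2-fold in both directions for 22375 probe sets (97.1%) and within 1.5-fold for 18548 (80.5%). The number of arrays limits this precision. Of the 23044 probe sets, 13926 were above 6 in at least 3 arrays. Nearer background a probe set has little signal, so a narrow interval there does not bound a change of the transcript. The median difference over all probe sets was -0.015, and -0.028, -0.015 and 0.0046 within pairs 1, 2 and 3, where a pair is the β4a and the β4b array of the same replicate number.

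Within each replicate number, the β4a and β4b arrays lay close together. The median absolute difference between them was 0.167, 0.134 and 0.125 on the log2 scale in replicates 1, 2 and 3, the lowest of the 6 group pairs in each replicate. The margin was small. In replicate 1 the eGFP and β4e arrays lay at 0.170, and in replicate 2 the β4a and β4e arrays lay at 0.137. In replicate 3 both of these group pairs lay at 0.132. The count of probe sets at least 2-fold apart did not give the same order, because in replicate 1 it was 364 between β4a and β4b and 202 between eGFP and β4e. It was 67 and 28 between β4a and β4b in replicates 2 and 3. These distances share arrays and are a description with no test.

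**Figure D1:**
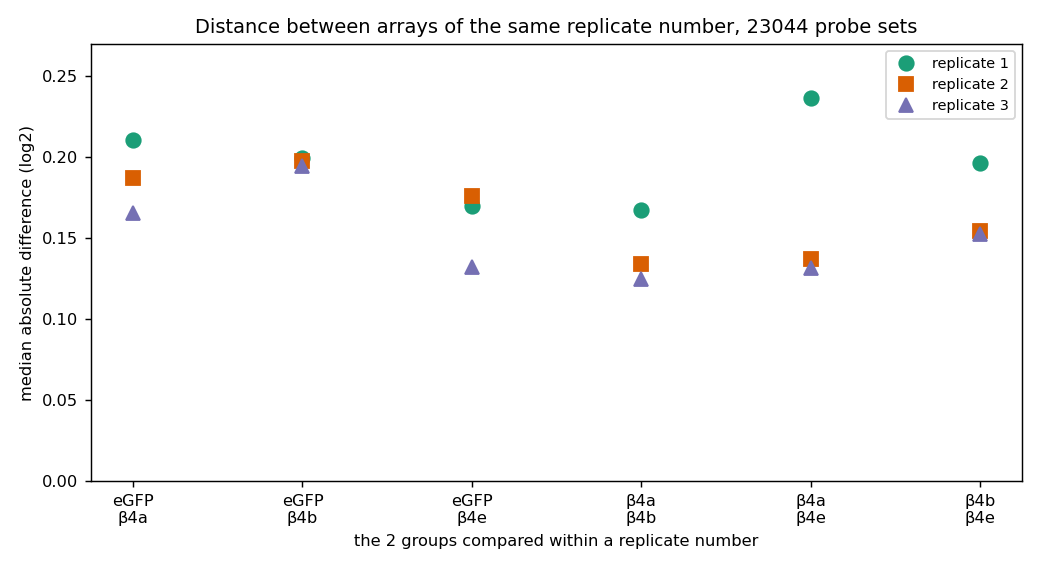
Median absolute log2 difference over 23044 probe sets (y axis) between arrays of the same replicate number, for the 6 pairs of groups (x axis). The β4a and β4b points, at 0.167, 0.134 and 0.125, are the lowest of their replicate by a small margin.

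The 3 probe sets for Cacnb4 itself did not separate the variants. The brightest read 12.04, 11.96 and 12.10 in the β4a arrays and 11.98, 11.80 and 12.09 in the β4b arrays, a difference of 0.08 (95% interval -0.11 to 0.26). The second differed by 0.11, with means of 10.64 and 10.53, and the third by -0.16, with means of 10.02 and 10.18. All were also high in the eGFP cultures, with means of 12.09, 10.88 and 9.74, which received no β4. The probe sets therefore do not check the labels, since the transcript of the cells' own gene and that of the construct cannot be told apart here.

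No other calcium channel subunit passed the limma test. Of 22 subunit genes, 14 were tested, 9 had a mean difference above 0, their median was 0.06, and 0 had an unadjusted p under 0.05. Cacna1a, the pore of P/Q-type channels that β4 accompanies in the cerebellum, differed by 0.14 (95% interval -0.15 to 0.44). Cacna1b, the N-type pore, differed by 0.15 (95% interval -0.06 to 0.37). Cacng2, which encodes the AMPA receptor partner stargazin, differed by -0.16 (95% interval -0.44 to 0.12).

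The largest mean differences were mostly in activity-regulated genes, and all that reached 2-fold on average pointed to higher levels with β4a. These genes are switched on within minutes to hours when calcium enters a neuron. They encode transcription factors such as FOS and NR4A proteins, phosphatases that shut off MAP kinases, and secreted factors such as BDNF. On average over the pairs, 21 probe sets (0.0911%) were at least 2-fold higher with β4a and 0 (0%) were at least 2-fold higher with β4b. None of the 21 passed the limma test. Of these probe sets 19 carried a single gene symbol and stood for 15 genes, 12 of them on the list of activity-regulated genes. The other 3 were Per2, a clock gene, Atoh7, a neurogenic transcription factor, and Rnf122, a ubiquitin ligase. The second Rnf122 probe set differed by -0.10. With each list gene taken at its brightest probe set, 9 were at least 2-fold higher with β4a on average. The 5 probe sets of Homer1, for example, differed by 0.26 to 1.16. The differences sat in the first pairs: 20 of the 21 were at least 2-fold apart in pair 1, 9 in pair 2 and 0 in pair 3, with medians of 2.81, 0.89 and 0.12. The background shares of probe sets at least 2-fold higher with β4a were 0.963%, 0.148% and 0.0608% in pairs 1, 2 and 3. Over both directions, 364, 67 and 28 probe sets were at least 2-fold apart in these pairs. Of these, 222, 34 and 14 were higher with β4a, so 2-fold differences within a pair went both ways. Without pair 1, 2 or 3, the 21 with β4a higher became 9, 45 and 50, and the 0 with β4b higher became 0, 4 and 6.

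**Figure D2:**
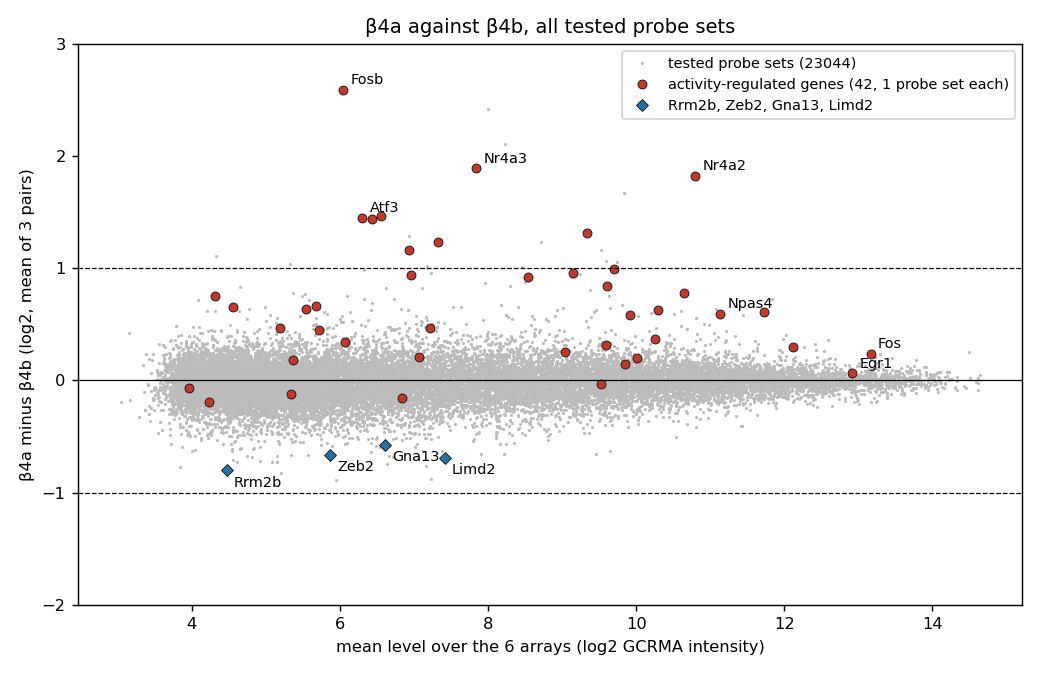
Mean log2 GCRMA intensity over the 6 arrays (x axis) against β4a minus β4b on the log2 scale, averaged over the 3 pairs (y axis), for 23044 probe sets in grey, 42 activity-regulated genes in red and 4 genes higher with β4b in blue. Dashed lines mark 2-fold, and the points above the upper line include Fosb, Nr4a3, Nr4a2 and Atf3.

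Fosb, an AP-1 transcription factor, had the largest difference. Its level was 10.14, 8.24 and 3.64 in the β4a arrays of replicates 1, 2 and 3 and 5.54, 5.46 and 3.25 in the β4b arrays. The β4a array was higher in every pair, but in replicate 3 both cultures were near the eGFP mean of 3.64, and the groups overlapped. The mean difference was 2.59 (95% interval 0.14 to 5.04, unadjusted p = 0.040 by limma). The adjusted p was 0.997 by limma.

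Atf3, a stress- and activity-induced transcription factor, had the smallest unadjusted p of the list. It read 8.12, 7.73 and 5.23 with β4a and 5.58, 6.12 and 5.03 with β4b. The difference of 1.45 (SE 0.445, unadjusted p = 0.0093 by limma) was again carried by replicates 1 and 2. Leaving out the third β4a array gave an adjusted p of 0.143 by limma, the smallest over the alternatives run, in which the adjusted p of Atf3 was otherwise at least 0.891.

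Nr4a2 and Nr4a3 encode orphan nuclear receptors induced by depolarisation. The Nr4a2 probe set with the largest difference read 11.77, 9.57 and 6.30 with β4a and 7.54, 6.53 and 6.30 with β4b, equal in replicate 3 to the second decimal. All 5 Nr4a2 probe sets were higher with β4a on average, by 0.25 to 2.42. Nr4a3 read 12.10, 8.59 and 5.67 with β4a and 7.12, 8.40 and 5.17 with β4b. Its mean difference of 1.89 came mostly from replicate 1, since the pairs differed by 4.97, 0.20 and 0.51. Without the first β4a array the fit gave -0.49. That fit kept the first β4b array and estimated the missing array from the other groups of replicate 1. With all arrays the Nr4a3 interval, -1.54 to 5.33, spanned 0. The second Nr4a3 probe set, near background, differed by -0.02.

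**Figure D3:**
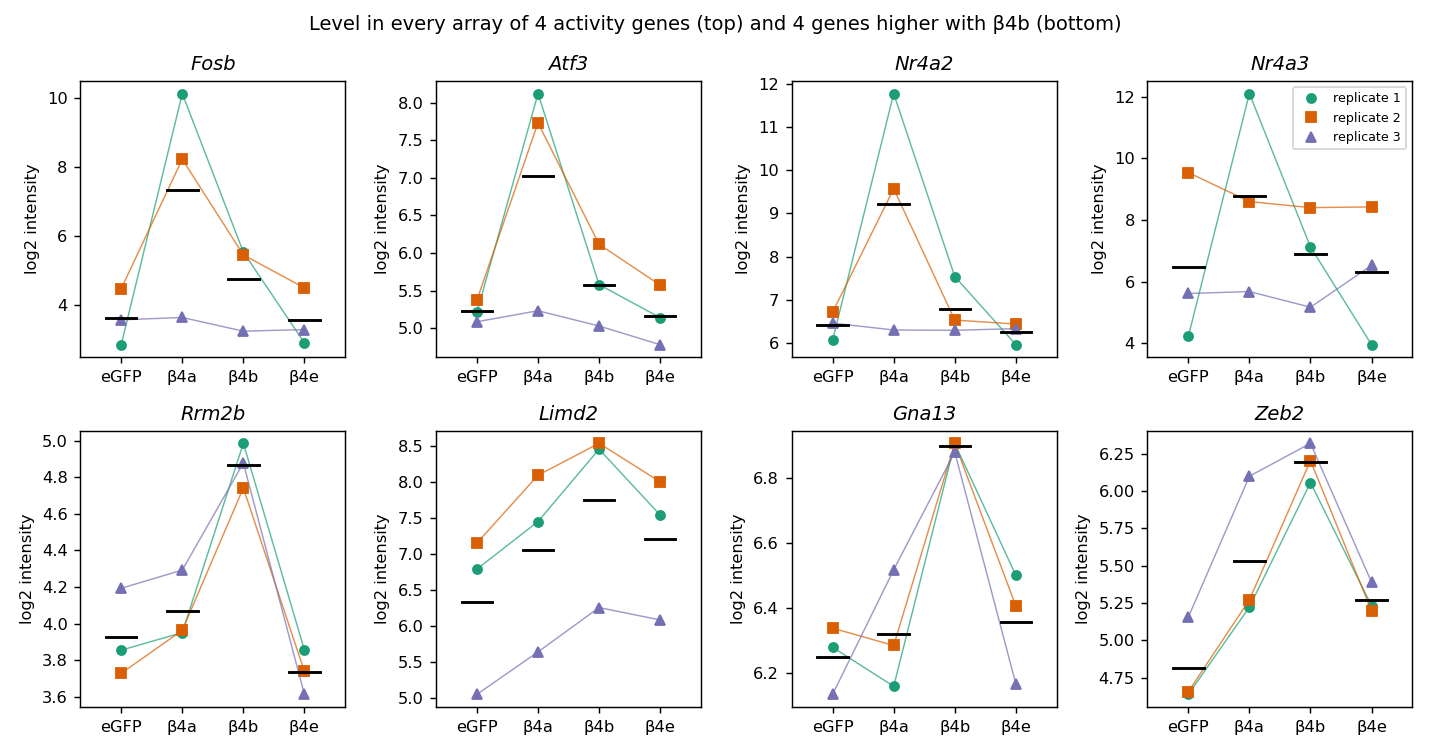
Log2 intensity (y axis) in each of the 12 arrays by group (x axis) for Fosb, Atf3, Nr4a2 and Nr4a3 in the upper row and Rrm2b, Limd2, Gna13 and Zeb2 in the lower row. Lines join arrays of 1 replicate number and black bars are group means. In the upper row the β4a arrays of replicate 3 lie beside the β4b arrays, as with Fosb at 3.64 and 3.25.

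Over the whole list, 42 of 46 activity-regulated genes were tested at 1 probe set per gene. Of these, 37 were higher with β4a on average, against 43.4% of all 10983 genes, and the median difference was 0.60 against -0.02 for all genes. The list was chosen with earlier results of these data known, so these values are a description with no test. Only Fosb and Atf3 had an unadjusted p under 0.05, where 2.58% of all genes were called (0.765% with β4a higher and 1.81% with β4b higher), and 0 passed the adjusted threshold. The median was 0.90 in pair 1, 0.47 in pair 2 and 0.01 in pair 3. Genes at least 2-fold higher with β4a numbered 19, 14 and 0 in the 3 pairs. The mean level of the list in the β4a arrays was 9.43, 8.94 and 6.84, against 8.19, 8.16 and 6.83 with β4b. In replicate 1 both stood above the eGFP and β4e arrays, at 6.46 and 6.27, and in replicate 3 all 4 arrays lay between 6.83 and 6.86.

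The result rested on single arrays. Without the β4a array of replicate 1 the median of the list was -0.026, with 19 of 42 genes above 0, and without that of replicate 3 it was 1.15. In the first of these fits the missing array is estimated from the other groups of replicate 1. Leaving out both arrays of pair 1, 2 or 3 gave 0.31, 0.40 and 0.89.

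The members at least 2-fold higher with β4a overlapped in part between pairs 1 and 2, sharing 5 of 19 and 5 of 14. Over the whole list, 19 of 42 reached this in pair 1 and 14 of 42 in pair 2. The overlap was therefore no larger than the shares of the list itself. A split made after seeing the values, and given as a description, sorts the 42 genes by where they were at least 2-fold higher with β4a. Both pairs reached this for the 5 shared genes, Fosb, Nr4a2, Atf3, Csrnp1 and Gem. In pair 1 alone it was reached by 14, among them Nr4a3, Bdnf, Vgf, Scg2, Homer1, Fosl2, Dusp4 and Rgs2, whose median was 2.43 in pair 1 and 0.23 in pair 2. In pair 2 alone it was reached by 9, namely Junb, Jun, Egr4, Nr4a1, Arc, Npas4, Ier2, Dusp1 and Btg2, with medians of 0.33 in pair 1 and 1.72 in pair 2. Of these 9, 4 were lower with β4a in pair 1, as with Ier2 at -1.36 and 1.38 and Dusp1 at -0.78 and 2.61 in pairs 1 and 2. The remaining 14 reached it in neither pair, among them Fos (-0.02 and 0.59), with means of 13.29 and 13.05.

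**Figure D4:**
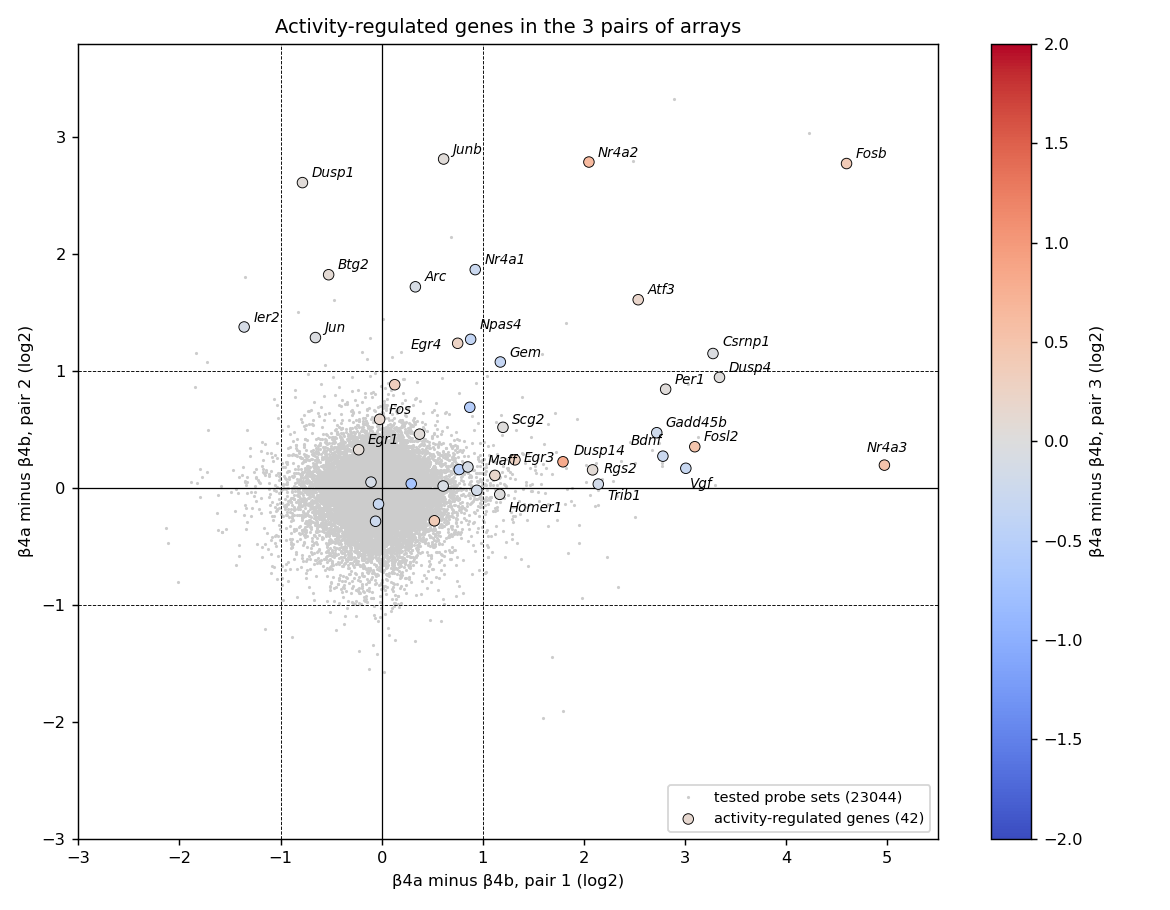
β4a minus β4b on the log2 scale in pair 1 (x axis) and pair 2 (y axis) for all tested probe sets (grey) and 42 activity-regulated genes, coloured by the difference in pair 3. Dashed lines mark 2-fold. Nr4a3 lies far to the right (4.97 in pair 1, 0.20 in pair 2), Dusp1 and Junb lie high, and Fosb is far along both axes, while all members have pair 3 values within 2-fold.

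Many activity-regulated genes are targets of CREB, which binds TGACGTCA and its shorter form TGACG. Promoters were therefore looked at for Atf3, Fosb and Dusp14, the 3 with the smallest p at the probe set used for the list. Those of Atf3 and Fosb are shown because they hold a match, while the window of Dusp14 held none of the 3 motifs searched. The sequences are the 250 bases before the RefSeq start site on GRCm38.p6. Atf3 and Fosb lie on the minus strand, at chr1:191183334-191183583 and chr7:19310046-19310295. Capitals mark a TGACG match, which in Atf3 is on the other strand and therefore reads CGTCA.
Atf3: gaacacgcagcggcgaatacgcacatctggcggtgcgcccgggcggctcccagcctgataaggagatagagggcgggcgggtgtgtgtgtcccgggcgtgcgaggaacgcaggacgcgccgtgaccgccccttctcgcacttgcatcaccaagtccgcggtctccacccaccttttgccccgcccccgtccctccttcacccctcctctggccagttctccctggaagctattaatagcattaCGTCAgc
Fosb: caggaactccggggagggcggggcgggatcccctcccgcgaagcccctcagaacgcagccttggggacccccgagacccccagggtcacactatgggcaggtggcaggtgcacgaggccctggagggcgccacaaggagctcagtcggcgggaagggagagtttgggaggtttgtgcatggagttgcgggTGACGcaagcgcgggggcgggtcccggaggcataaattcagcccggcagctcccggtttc
The match begins 7 bases before the start site in Atf3 and 60 bases before it in Fosb. Windows of 300 bases, 250 before to 50 after the start site, were searched on both strands. TGACG, which is also part of TGACGTCA, was in 20.8% of 32851 windows, TGACGTCA in 1.79% and the AP-1 site TGANTCA in 7.81%. Counted per gene, TGACG was in 23 of the 33 listed genes with a window (69.7%, against 23% of 27025 genes), TGACGTCA in 5 (15.2% against 2.03%) and TGANTCA in 2 (6.06% against 8.97%). These matches describe the sequence only.

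Feedback regulators of ERK, 13 of 14 tested, had a median of 0.28 with 10 above 0, and 0.77, 0.13 and -0.11 in the 3 pairs. Dusp4, Dusp5 and Dusp6 are also on the activity list, and the other 10 had a median of 0.24 with 7 above 0. Dusp4, a nuclear MAP kinase phosphatase, read 8.71, 7.49 and 5.24 with β4a and 5.37, 6.54 and 5.22 with β4b. Sprouty 2, Spry2, differed by 1.23 in pair 1 and by 0.25 and 0.00 in pairs 2 and 3. In the clock list, which shares Per1 with the activity list, 11 of 16 genes were above 0 and the median was 0.12, and 0.11 for the other 15. Per1 and Per2, whose promoters respond to CREB, differed by 2.81 and 2.51 in pair 1 and by 0.04 and 0.34 in pair 3. Bhlhe41, a clock repressor near background, differed by 0.31 (SE 0.113), the only clock gene with an unadjusted p under 0.05, and its adjusted p was 0.997 by limma. Cholesterol synthesis genes had 15 of 20 above 0 and a median of 0.12, and Msmo1, a sterol oxidase, differed by 0.38 (unadjusted p = 0.048 by limma, adjusted 0.997).

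Genes higher with β4b differed by less. None was 2-fold apart on average. The 12 chosen by the smallest p among those with 3 pairs in 1 direction differed by 0.36 to 0.80 in size. The largest was Rrm2b, which passed the level filter only through its β4b arrays, and the next was Limd2 at -0.69. In all, 3446 probe sets (15%) were higher with β4b in 3 of 3 pairs and 2670 (11.6%) were higher with β4a. This split also depended on scaling, with 3007 against 3052 after a second quantile normalisation and 2582 against 3339 after median centring, and with no filter it was 5333 against 6477. Groups did not overlap for 325 (1.41%) with β4b higher and for 209 (0.907%) with β4a higher. Of the 12 genes, 4 did not overlap, Rrm2b among them, a count that the choice by small p and shared direction favours. In the lower group 7 of the 12 had a mean under 5, close to the floor of the array.

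Rrm2b, the p53-induced small subunit of ribonucleotide reductase, was the only 1 of the 12 that would not have passed the level filter without its β4b arrays. It read 3.95, 3.96 and 4.29 with β4a and 4.99, 4.74 and 4.88 with β4b. The β4a values lay at background, so the gap of -0.80 between the means has no precise size and its test is not given. Its other 3 probe sets were also lower with β4a on average, by 0.50, 0.41 and 0.15 in size. The first of these would likewise not have passed the level filter without its β4b arrays, so its direction adds no support. Only the last was well above background, with means of 7.46 and 7.62, and its pairs differed by -0.46, 0.08 and -0.08.

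Gna13, a G-protein α subunit, read 6.16, 6.28 and 6.52 with β4a and 6.90, 6.91 and 6.88 with β4b. The groups did not overlap, and the difference was -0.58 (SE 0.126). All 7 of its probe sets were lower with β4a, the smallest by -0.05. Zeb2, a zinc finger repressor, read 5.22, 5.27 and 6.10 with β4a and 6.06, 6.21 and 6.32 with β4b. Its difference was -0.66, and its other probe sets gave -0.60 and -0.17.

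Limd2, a LIM domain protein, read 7.46, 8.10 and 5.65 with β4a and 8.46, 8.54 and 6.26 with β4b. Each pair was lower with β4a, by 1.01, 0.44 and 0.62 in size, although replicate 3 lay far below the others in both groups. Rgcc, a regulator of the cell cycle, read 6.01, 4.52 and 5.98 with β4a and 8.14, 4.86 and 6.17 with β4b, so its difference of -0.88 came mainly from replicate 1. Rflnb, an actin regulator, differed by -0.76 at 1 probe set and -0.63 at the other. Replicate 1 again gave the largest part, with pairs at -1.54, -0.35 and -0.38 and at -1.23, -0.48 and -0.19. Tppp3, a tubulin-binding protein, read 7.24, 8.15 and 8.26 against 8.81, 8.52 and 8.28.

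Apart from Per2, Atoh7 and Rnf122, the genes named here as higher with β4a outside the activity list were under 2-fold. Gtf3c2, a subunit of the RNA polymerase III factor TFIIIC, read 7.10, 6.87 and 7.01 with β4a and 6.60, 6.22 and 6.78 with β4b. The groups did not overlap and the difference was 0.46 (95% interval 0.24 to 0.68), but its other 4 probe sets lay between -0.19 and 0.07. Pogz, a zinc finger protein of heterochromatin, read 9.19, 8.36 and 8.65 against 8.13, 8.08 and 8.03. It differed by 0.66, and its other probe sets differed by 0.22 and -0.12. Hnrnpu, a nuclear matrix RNA-binding protein, was above 0 at all 5 probe sets, by 0.10 to 0.55. None of these genes passed the limma test after adjustment.

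Proteins and targets reported to act with β4 in the nucleus were tested for 11 of 18 genes. Of these 10 were above 0, where 43.4% of all genes were, with a median of 0.07. The largest difference, 0.63, was that of Gem, which is also on the activity-regulated list. Rgs9, a G-protein regulator, differed by 0.32 (unadjusted p = 0.013 by limma, adjusted 0.997), at 4.26, 4.46 and 4.59 against 4.09, 3.95 and 4.33, near background. Cbx5, which encodes the heterochromatin protein HP1α, differed by 0.23 (SE 0.111), at 8.73, 8.56 and 9.08 against 8.59, 8.32 and 8.76. Ppp2r5d, a PP2A regulatory subunit, differed by 0.07 and Thra, a thyroid hormone receptor, by 0.05.

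Granule cell identity genes centred on 0. Of 28 such genes 27 were tested, 12 were above 0 and 15 below, and the median was -0.02. Gabra6, a GABA receptor subunit that marks mature granule cells, had means of 13.80 and 13.82, and Neurod1 and Zic1, granule lineage factors, were above 14 in both groups. Receptors, channels, synaptic vesicle genes, ribosomal proteins and respiratory chain genes had medians within 0.1 of 0, as did 28 of the 34 lists with at least 5 tested members.

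No glial marker passed the limma test after adjustment. Of 23 tested markers of astrocytes and Bergmann glia, 2 were above 0 on average, where 43.4% of all genes were, with a median of -0.17 and 0 at an unadjusted p under 0.05. Ribosomal protein genes had a similar count, 2 of 19 above 0, at a median of -0.03. In pair 1, 13 of the 23 astrocyte markers were higher with β4a, and in pairs 2 and 3 it was 2 in each. The median was 0.00 in pair 1, -0.26 in pair 2 and -0.23 in pair 3. The mean level of the list ran from 9.48 to 10.31 with β4a and from 9.74 to 10.57 with β4b. Gfap, the astrocyte filament protein, differed by -0.40 (SE 0.49) and Aqp4, a water channel, by -0.18 (SE 0.31).

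Oligodendrocyte genes had 14 of 16 below 0, with a median of -0.09. Bcas1, of early myelinating cells, read 9.67, 8.50 and 7.45 with β4a and 9.56, 9.38 and 8.28 with β4b, and Mag, a myelin glycoprotein, differed by -0.23. Both had an unadjusted p under 0.05 by limma (0.031 and 0.017), and neither passed after adjustment. Microglial genes had 10 of 13 below 0, with a median of -0.17 and mean levels of 6.50 to 7.36 with β4a and 6.68 to 7.38 with β4b. Endothelial markers were not tested, since 0 of 12 passed the level filter, and Pecam1 and Cldn5 stayed under 4 on the 6 arrays. Pcp2 of Purkinje cells and Aif1 of microglia also did not pass. Gfap, at 10.71 to 12.69, and Mbp, the myelin protein gene, at 14.10 to 14.52, were high in the 6 arrays of these granule cell cultures. In such bulk samples fewer cells of a type and less RNA per cell cannot be told apart. The part of glial RNA in the other differences was not tested.

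**Figure D5:**
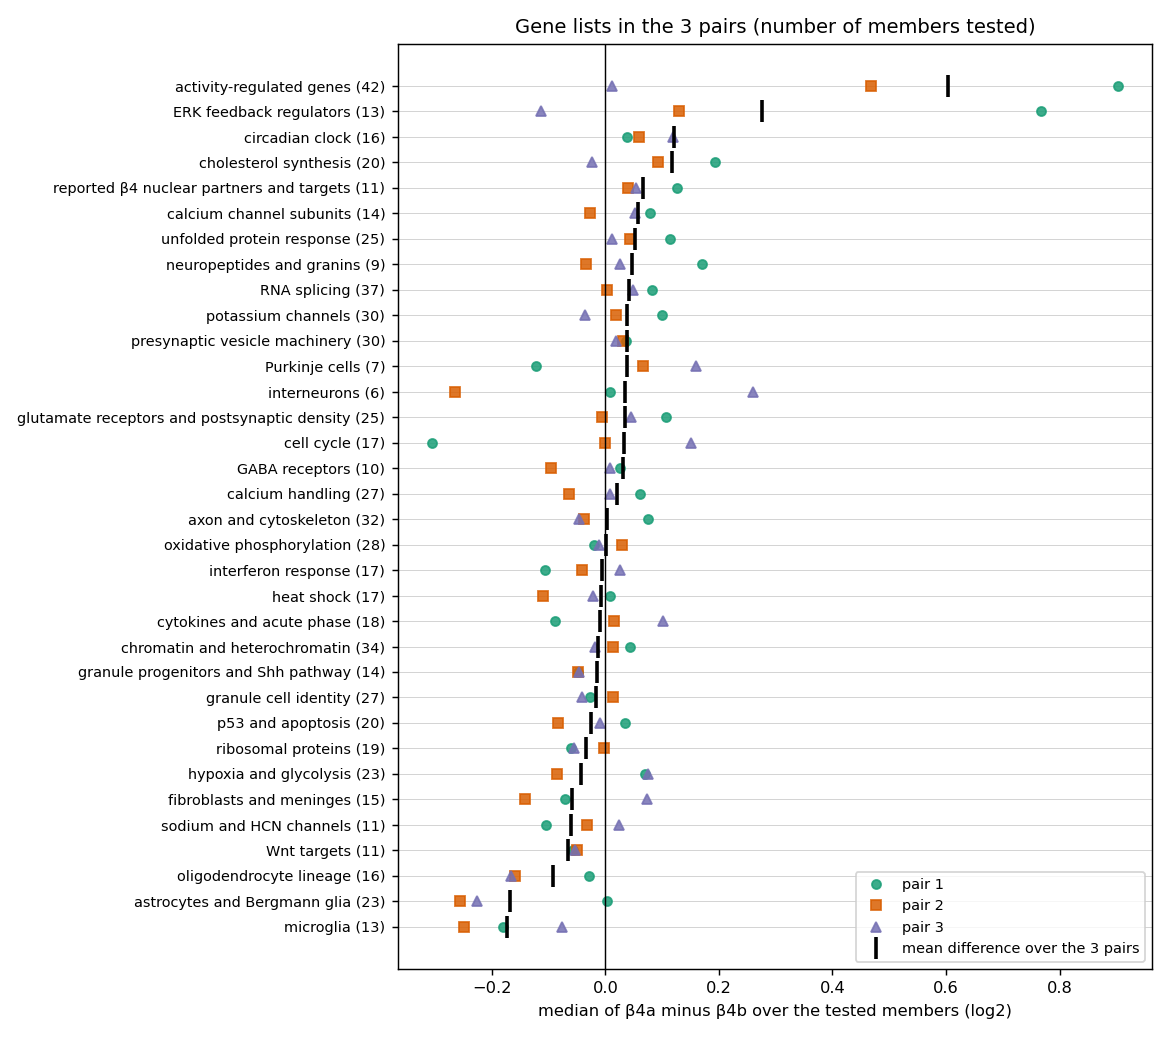
Median of β4a minus β4b on the log2 scale (x axis) over the tested members of 34 gene lists (y axis, number tested in brackets), within each pair (symbols) and for the mean over the pairs (bars). The activity-regulated list stands at 0.90, 0.47 and 0.01 in pairs 1, 2 and 3, and glial lists lie at the lower end.

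Signs of RNA quality were alike in the 6 arrays. The 3′ minus 5′ difference of the control probe sets was 0.82 to 0.94 for Actb and -0.05 to 0.22 for Gapdh, and the array medians ran from 3.84 to 3.90.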

How the data were processed

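RNA was measured on Affymetrix GeneChip arrays. The deposited values are log2 intensities that the authors computed with GCRMA, per the submitters' processing notes; its version is not given in the sources used here. Arrays were grouped and paired by the replicate number in their titles. From 45101 probe sets, 64 AFFX controls were left out and 23044 above 4 in at least 3 of 12 arrays were tested. Of these, 19477 had 1 gene symbol in the platform annotation, 534 several and 3033 none. The fit used limma 3.58.1 in R 4.3.3 on 12 arrays, with group and replicate number (6 residual degrees of freedom), the contrast β4a minus β4b, two-sided, with Benjamini-Hochberg adjustment over 23044 probe sets and a threshold of 0.05. The pairing was checked: deviations of β4a and β4b arrays from their group means correlated at 0.855 to 0.884 over probe sets for the 3 same-numbered pairs and at -0.609 to -0.0338 for the 6 others. Taking out the group means pushes the values of the 6 others below 0 by construction. The levels themselves correlated at 0.992 to 0.996 for the same-numbered pairs and at 0.952 to 0.978 for the others.

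Named genes were, per direction, the 12 with the smallest p and all 3 pairs in 1 direction, the 6 with the largest such differences, calcium channel subunits, up to 4 members of each list, and probe sets at least 2-fold apart; the last were added after seeing values. Lists used the probe set with the highest mean. The comparison, lists and members were chosen with earlier results of these data known. On simulated data for this comparison over 23044 probe sets, the fit recovered 72 of 100 2-fold and 98 of 100 4-fold changes, with 7 false calls. The simulated errors were independent and normal, and each change was equal in all 3 β4a arrays. The largest differences found here were unequal between pairs, so this recovery does not apply to them. Alternatives changed the block, arrays, filter, normalisation, moderation, probe sets per gene and test.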

Additional observations from a re-analysis of the deposited data

How the results depend on the processing

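The count of 0 probe sets past adjusted p held in the 20 alternatives of the limma fit and in the paired test of each probe set alone. At an unadjusted p under 0.05 the count of 619 became 56 with no replicate block, 1070 with only the 6 arrays, 1432 with no filter, 335 with a filter above 6, 311 with 1 probe set per gene and 1118 in a paired test of each probe set alone; leaving out 1 array gave 426 to 1083, the extremes being without β4a replicate 1 and without β4a replicate 3. The count of probe sets with all pairs in 1 direction was 6116, and 11810 with no filter, 3747 above 6 and 3052 with 1 probe set per gene; with only 2 pairs left it was 11485 to 11973, since fewer pairs must share a sign. The 21 probe sets at least 2-fold apart became 11 with 1 probe set per gene and 9, 49 and 56 without replicates 1, 2 and 3, of which 0, 4 and 6 were higher with β4b. The median of the activity-regulated list ranged from -0.026 to 1.15 when 1 array was left out. Of 933 values of 46 named probe sets, 4 reversed, each without β4a replicate 1. That fit kept β4b replicate 1 and estimated the missing array from the other groups of replicate 1. When 1 array was left out, Homer1 ranged from -0.18 to 1.85 and Nr4a3 from -0.49 to 3.11. Gadd45b ranged from -0.12 to 1.99 and Rnf122 from -0.069 to 1.57. Of 649 list medians, 47 moved beyond the SD of the 3 pairs. The causes were not tested. Probe sets near background, such as Rrm2b, have little signal to resolve a difference, and groups of 3 arrays were too small to be screened for outlying arrays.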
